A study of Rattus norvegicus with 9 samples.

Results

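Tenascins, thrombospondins, periostin, fibronectin and SPARC are proteins that cells secrete into the extracellular matrix. Most of them are called matricellular proteins, because they act on cell adhesion, collagen fibril assembly and growth factors rather than bearing load themselves. In adult connective tissue many are kept at low levels and are made again during wound repair, while fibronectin is the adhesive protein of the early repair matrix. The 10 genes described here are Tnc, Tnn, Postn, Thbs1, Thbs2, Thbs3, Thbs4, Comp, Fn1 and Sparc, taken by their symbols from the 17602 genes of the deposited rat table. All 10 were found, and all 10 passed the filter on low values (above 0 TPM in at least 3 libraries). The genes were chosen by measured values, namely their TPM differences between these same groups, among which Tnn and Tnc had large increases. The differences of these 10 genes are therefore given as descriptions, with their standard errors and without p-values. These errors come from a fit that pools the spread of all groups, so a gene has the same error in every comparison.

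The rats were wild-type male Lewis rats aged 10 to 12 weeks, and 3 groups of 3 libraries were sequenced. The intact libraries came from synovium, the lining tissue of the joint, next to the medial meniscus of rats that had no surgery. The sham libraries came from the same site 1 week after the joint capsule was opened and closed. The pMx libraries came from regenerating tissue 1 week after partial medial meniscectomy of both knees, in which the anterior part of the medial meniscus is cut away, and the synovium around this tissue was trimmed off. The pMx and sham groups thus differed in the operation and in the tissue taken, and these cannot be told apart. The labels call the replicates biological. Whether a library holds 1 animal or several was not stated in the sources used here.

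Values are TPM (transcript abundance scaled to a fixed library total), which are scaled by transcript length and keep no read numbers, so the depth of the libraries is unknown and precision rests on the spread over 3 libraries. Genes above 0 TPM numbered 15644 to 16125 per library. Intact replicate 3 stood apart, with a mean Pearson correlation across genes of 0.962 with its group, against 0.976 to 0.994 for the other 8 libraries. Its 5 skeletal muscle markers summed to 35519 TPM, against 51.2 to 2357 TPM in the others. Fibroblast markers (5 of 5 in the table) summed to 6658 to 9495 TPM in intact synovium, 12845 to 14494 in sham synovium and 31363 to 34695 in pMx tissue. Dcn was the most abundant in the intact and sham groups, and Col1a1 in pMx tissue. By the rule given below, Col1a1, Col1a2 and Thy1 were called higher in pMx versus sham. Dcn and Pdgfra were not called, with log2 fold changes of -0.94 and -0.08. The 5 markers of lining fibroblasts, with Prg4 (lubricin) the most abundant, summed to 3410 to 4528, 2361 to 2780 and 2526 to 3446 TPM in the intact, sham and pMx libraries. Of these markers only Clic5 was called in pMx versus sham, and it was lower (means of 239 TPM in sham and 13.1 TPM in pMx libraries). Htra1 was higher without a call, at means of 904 TPM in sham and 1566 TPM in pMx libraries. The 5 adipocyte markers, led by Fabp4, summed to 3295 to 6976 TPM in intact synovium and 4278 to 4610 in sham synovium, and to 302 to 475 in pMx tissue, and 5 of 5 were called lower in pMx versus sham by the rule given below. Macrophage markers (5 of 5, led by C1qa) summed to 572 to 935, 1037 to 1059 and 764 to 1033 TPM, and endothelial markers (5 of 5, led by Pecam1) to 507 to 692, 456 to 523 and 447 to 567 TPM. Of the macrophage markers only Cd163 was called in pMx versus sham, and it was lower (log2 fold change -2.24). Cd68 was higher without a call (0.47), at means of 150 TPM in sham and 209 TPM in pMx libraries. Csf1r, Adgre1 and C1qa had log2 fold changes of -0.12, -0.13 and -0.35. In pMx versus intact, Cd68 was called higher (1.41) and Cd163 lower (-2.20). Platelet markers (5 of 5, led by Pf4) summed to 81.7 to 109, 155 to 228 and 138 to 139 TPM, with Ppbp listed at 0 in all sham and pMx libraries and Gp9 in all pMx libraries. Chondrocyte markers (4 of 5 in the table) summed to 3.21 to 20.9, 2.42 to 4.69 and 3.19 to 7.50 TPM, and Cnmd was listed at 0 in all pMx libraries. Hapln1 was the most abundant of them in pMx tissue, at 5.05 ± 2.17 TPM (SD, n = 3). It was the only chondrocyte marker called in pMx versus sham, and it was higher (mean of 1.04 TPM in sham libraries). Cnmd and Col9a1 were lower without a call, with log2 fold changes of -0.83 and -0.397. Col2a1 differed by -0.06. RNA integrity, graded by the study before sequencing, also differed between the groups and cannot be told apart from them.

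Most of the 10 genes were higher after surgery, and highest in the regenerating tissue. A gene was called when limma gave it an adjusted p under 0.05 and it differed by more than 1 on the log2(TPM + 1) scale, in either direction. In pMx versus sham, 5 of the 10 genes were called higher (Tnc, Tnn, Postn, Thbs2 and Thbs4) and none lower. Of all 16512 genes tested, 3.36% were called higher. For 9 genes, all but Fn1, every pMx library lay above every sham library, as it did for 27.0% of all genes. In sham versus intact, 5 genes were called higher (Tnn, Postn, Thbs2, Thbs3 and Thbs4) and none lower, with 1.42% of all genes called higher. This count was 3 without intact replicate 2, intact replicate 3, sham replicate 1 or sham replicate 2. For these 5 and Sparc the groups did not overlap, and 14.2% of all genes lay higher in the same way. In pMx versus intact, 8 genes, all but Thbs1 and Fn1, were called higher, against 6.40% of all genes. The groups did not overlap for 9 of the 10, against 26.9% of all genes. Because the genes were chosen with these comparisons known, nothing is read from their counts. The median log2 fold change of the 10 genes was 1.32 in pMx versus sham, 0.87 in sham versus intact and 2.69 in pMx versus intact, while the medians of all genes tested were -0.01, -0.02 and -0.03. These comparisons share libraries, so their values stand side by side and are not independent. In bulk tissue, fewer cells of a type and less RNA per cell cannot be told apart.

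**Figure D1:**
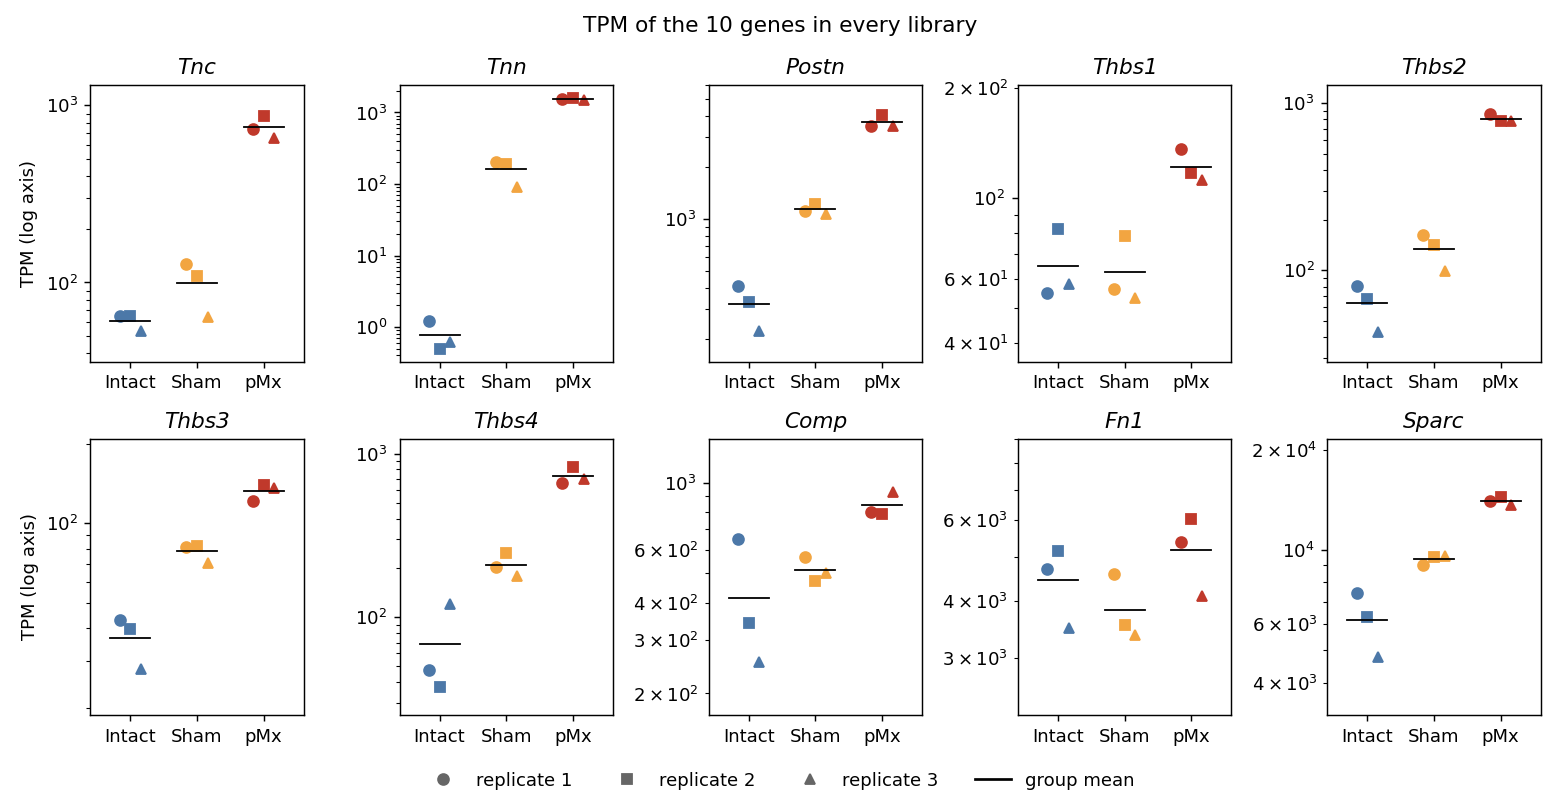
TPM (log axis, with its own range in each panel) of the 10 genes in the 3 intact, 3 sham and 3 pMx libraries, with a symbol for each replicate number and a line at each group mean. Every pMx library lies above every sham library for 9 genes, and the groups overlap for Fn1.

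Both tenascins were high in the regenerating tissue, but only Tnn was already far above its intact level in sham synovium. Tnc (gene identifier 116640) encodes tenascin-C, a large glycoprotein of developing, healing and tendon tissue that loosens cell adhesion. Its level in replicates 1 to 3 was 64.8, 64.6 and 53.5 TPM without surgery, 127, 109 and 63.5 TPM after sham surgery and 738, 870 and 656 TPM in pMx tissue. The lowest pMx library was 5.19 times the highest sham library, while sham replicate 3 fell within the intact range. On the log2 scale Tnc differed by 2.96 ± 0.23 (SE) in pMx versus sham and 0.65 ± 0.23 (SE) in sham versus intact. In pMx versus sham this was the 8th largest increase among the 16512 genes.

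Tnn (gene identifier 304913) encodes tenascin-N, also called tenascin-W, which is found around forming bone and in the stroma of tumors and is scarce in most adult tissue. It was nearly silent without surgery, at 1.21, 0.49 and 0.62 TPM. After sham surgery it reached 202, 193 and 90.3 TPM, and pMx tissue held 1533, 1619 and 1477 TPM. The 3 groups were wide apart, and the lowest sham library was 74.7 times the highest intact library. The log2 fold change was 6.45 ± 0.29 (SE) in sham versus intact, 3.33 ± 0.29 (SE) in pMx versus sham and 9.79 in pMx versus intact. The increase was the largest of all genes in sham versus intact and in pMx versus intact. Because the intact values lie near 1 TPM, the pseudocount of 1 holds the sham versus intact value down, and a pseudocount of 0.1 gave 7.53.

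The balance of the tenascins turned over between the groups. Tnn made up 0.753% to 1.83% of the summed TPM of Tnc and Tnn in the intact libraries, 58.7% to 64.0% in the sham libraries and 65.0% to 69.2% in the pMx libraries. The ratio of Tnn to Tnc was 1.60 ± 0.177 in sham synovium and 2.06 ± 0.196 in pMx tissue (mean ± SD, n = 3 each), and every pMx library lay above every sham library. The sum of both genes was 261 ± 94.0 TPM in sham synovium and 2297 ± 179.5 TPM in pMx tissue. Of the other tenascin genes listed, Tnr, known from the nervous system, stood at 1.38, 1.49 and 0.81 TPM without surgery, at 0.25, 0.16 and 0.24 TPM after sham surgery and at 0.01, 0.02 and 0.03 TPM in pMx tissue. Tnr was called in neither step (log2 differences of -0.86 and -0.25), and it was called lower in pMx versus intact (-1.11, adjusted p = 6.72e-05 from limma).

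Periostin, encoded by Postn (gene identifier 361945), is a fasciclin-domain protein of periosteum, ligament and healing skin that binds collagen and helps in its cross-linking. Replicates 1 to 3 held Postn at 409, 331 and 222 TPM without surgery, 1117, 1230 and 1077 TPM after sham surgery and 3474, 4023 and 3495 TPM in pMx tissue. No groups overlapped, and replicates of the operated groups lay close together (coefficients of variation of 6.95% in sham and 8.49% in pMx). The steps were of like size, with log2 fold changes of 1.87 in sham versus intact and 1.68 in pMx versus sham (SE 0.20 each). Postn ranked 429th by mean TPM among all genes of the table in intact synovium and 27th in pMx tissue. The ratio of Postn to Tnc averaged 5.20 ± 1.08 for intact, 12.4 ± 4.17 for sham and 4.89 ± 0.384 for pMx libraries (mean ± SD, n = 3 each), since Postn was higher at both steps and Tnc mainly at the step from sham to pMx.

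**Figure D2:**
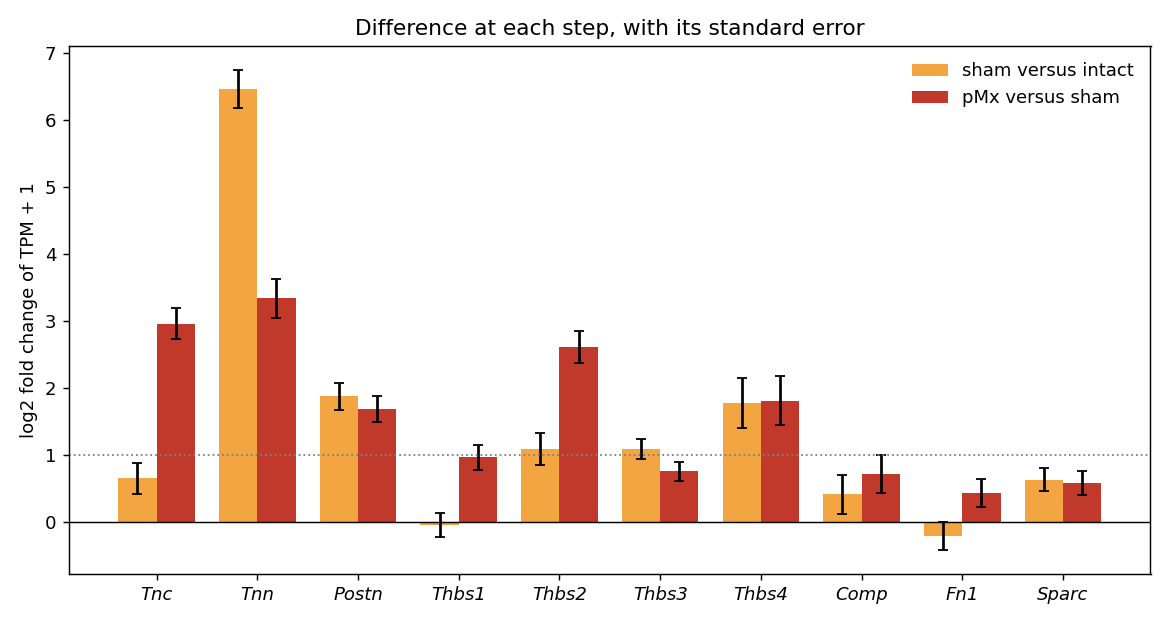
Log2 fold change of TPM + 1 of the 10 genes in sham versus intact and in pMx versus sham, with bars for the standard error and a dotted line at 1. Tnn has the tallest bar at both steps, Tnc and Thbs2 have the taller bar in pMx versus sham, and Fn1 stays below 1 at both.

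The table of RefSeq start regions used here (build GRCr8) was matched for 8 of the 10 genes, that is for all but Thbs2 and Fn1. Those of Tnc, Tnn, Postn and Thbs4 are shown because these genes, together with Thbs2, were called higher in pMx versus sham. The 250 bases before the start were searched on both strands for 4 motifs. The AP-1 motif was spelled TGANTCA, with N for any base. The TEAD motif was taken as GGAATG. For the GC box, the letters were GGGCGG. The TATA box was sought as TATAAA, and none of these motifs overlap where they matched. Capitals mark the matches, and each sequence is written in the direction of the gene.
Tnc, chr5:82476132-82476381, minus strand: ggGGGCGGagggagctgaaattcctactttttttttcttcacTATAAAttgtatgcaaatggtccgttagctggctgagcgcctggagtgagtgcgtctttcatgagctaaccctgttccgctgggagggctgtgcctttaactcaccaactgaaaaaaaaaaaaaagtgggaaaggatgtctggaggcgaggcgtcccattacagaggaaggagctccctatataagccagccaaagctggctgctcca
Tnn, chr13:74919790-74920039, minus strand: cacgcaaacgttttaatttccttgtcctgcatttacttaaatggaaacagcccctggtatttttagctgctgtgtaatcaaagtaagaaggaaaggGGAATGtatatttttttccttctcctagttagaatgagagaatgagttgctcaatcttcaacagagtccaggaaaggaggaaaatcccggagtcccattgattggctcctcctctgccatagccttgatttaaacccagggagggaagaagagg
Postn, chr2:140677811-140678060, plus strand: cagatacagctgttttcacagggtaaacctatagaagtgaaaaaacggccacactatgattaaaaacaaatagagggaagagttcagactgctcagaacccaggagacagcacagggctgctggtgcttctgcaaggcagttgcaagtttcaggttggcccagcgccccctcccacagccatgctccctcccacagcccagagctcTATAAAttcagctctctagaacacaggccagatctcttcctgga
Thbs4, chr2:25760346-25760595, minus strand: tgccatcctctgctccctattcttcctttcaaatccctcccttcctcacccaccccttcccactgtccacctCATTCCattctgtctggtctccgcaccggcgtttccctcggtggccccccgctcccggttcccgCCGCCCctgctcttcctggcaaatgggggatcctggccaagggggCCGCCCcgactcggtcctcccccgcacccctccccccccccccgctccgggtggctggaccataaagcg

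No motif was found in all 4 of these upstream stretches. The TATA box letters stood 44 bases before the start in Postn and 208 bases before it in Tnc, and they occur in 12.9% of the 33469 rat start regions of the same length. The TEAD letters were found 154 bases before the start of Tnn and 178 bases before that of Thbs4, and occur in 12.1% of start regions. They were also found in Thbs1 and Sparc, whose regions are not shown, at 47 and 33 bases before the start. GC box letters were found in Tnc and, at 2 places, in Thbs4, and occur in 30.5% of start regions. Thbs1 and Thbs3 held GC box letters as well. The AP-1 letters were in none of the 8 regions and occur in 6.34% of start regions. The share of G and C was 42.4% in Tnn, 49.6% in Tnc, 50.8% in Postn and 67.6% in Thbs4. A match is only a match of letters, and the stretches searched are short. Other spellings were not searched, such as TATATAAG, which Tnc holds nearer its start.

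The thrombospondins fall into trimers (Thbs1 and Thbs2) and pentamers (Thbs3, Thbs4 and Comp), and the trimer genes behaved unlike each other. Thbs1 (gene identifier 445442) encodes thrombospondin-1, a blood vessel inhibitor released by platelets that activates latent TGF-beta. Its level in replicates 1 to 3 was 54.8, 82.0 and 58.1 TPM without surgery, 56.3, 78.5 and 53.2 TPM after sham surgery and 136, 117 and 112 TPM in pMx tissue. Intact and sham overlapped fully, and the pMx libraries lay above both. The log2 fold change was 0.96 ± 0.18 (SE) in pMx versus sham, just under the fold-change threshold. Leaving out sham replicate 2 or pMx replicate 3 moved it past the threshold, to 1.13 and 1.02. The platelet markers given above summed to less in every pMx library than in any sham library, but to more than in any intact library. Pf4 made up most of these sums, at means of 92.9, 176 and 137 TPM in the intact, sham and pMx libraries. Itga2b and Gp9 were instead lower in pMx than in intact libraries (means of 1.34 against 2.95 TPM and 0 against 1.22 TPM). Gp1bb was at 0.83 against 0.69 TPM. Whether platelet RNA took part in the Thbs1 values was not tested.

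Thbs2 (gene identifier 292406) encodes thrombospondin-2, which also restrains blood vessel growth and shapes collagen fibrils in skin and tendon. Replicates 1 to 3 held Thbs2 at 81.2, 67.5 and 42.6 TPM without surgery, 163, 142 and 99.1 TPM after sham surgery and 858, 784 and 786 TPM in pMx tissue. The groups did not overlap, and the pMx libraries differed little from each other (coefficient of variation 5.19%). The log2 fold change was 2.61 ± 0.24 (SE) in pMx versus sham, the 19th largest of all genes, and 1.08 in sham versus intact. The latter call was lost without intact replicate 2, intact replicate 3, sham replicate 1 or sham replicate 2 (log2 fold changes of 1.15, 0.82, 0.93 and 1.03). The ratio of Thbs2 to Thbs1 averaged 1.01 ± 0.408 for intact, 2.19 ± 0.612 for sham and 6.67 ± 0.356 for pMx libraries (mean ± SD, n = 3 each).

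Among the pentamer genes, Thbs4 changed most. Thrombospondin-4 (gene identifier 29220) is made in tendon and muscle and takes part in collagen organization at their junction. The Thbs4 level in replicates 1 to 3 was 47.4, 37.7 and 120 TPM without surgery, 202, 247 and 178 TPM after sham surgery and 659, 823 and 703 TPM in pMx tissue. The groups did not overlap, although intact replicate 3 lay far above the other intact libraries. That library also held 35519 TPM of skeletal muscle markers and 15.6 TPM of Scx, a tendon transcription factor at 1.97 and 2.16 TPM in the other intact libraries. The log2 fold change of Thbs4 was 1.77 ± 0.37 (SE) in sham versus intact and 1.80 ± 0.37 (SE) in pMx versus sham, and the former was 2.26 without intact replicate 3. The sham versus intact call was lost without intact replicate 2, sham replicate 1 or sham replicate 2 (1.44, 1.79 and 1.64). Whether muscle or tendon RNA took part in these values was not tested.

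Thbs3 (gene identifier 681309), known from skeletal growth, stood at 42.8, 39.6 and 28.0 TPM in intact replicates. After sham surgery it stood at 81.6, 82.0 and 71.0 TPM, and pMx tissue held 122, 140 and 136 TPM. No groups overlapped for Thbs3, and the larger step was from intact to sham. Its log2 fold change was 1.09 ± 0.15 (SE) in sham versus intact and 0.75 ± 0.15 (SE) in pMx versus sham. The former was 0.91 and not called without intact replicate 3.

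Comp (gene identifier 25304) encodes cartilage oligomeric matrix protein, an abundant protein of cartilage, tendon and meniscus that links collagen fibrils. Its level in replicates 1 to 3 was 649, 343 and 254 TPM without surgery, 565, 471 and 500 TPM after sham surgery and 802, 786 and 933 TPM in pMx tissue. The intact libraries were widely spread (coefficient of variation 49.9%) and enclosed the sham libraries, and the pMx libraries lay above all others. Intact replicate 1, the highest of them, also held 16.1 TPM of Col2a1, a chondrocyte marker at 0.29 and 0.24 TPM in intact replicates 2 and 3. Another chondrocyte marker, Col9a1, was lowest in that library (0.53 TPM against 0.89 and 0.91 TPM). Whether cartilage RNA took part in these values was not tested. The log2 fold change of Comp was 0.71 ± 0.29 (SE) in pMx versus sham, 0.41 ± 0.29 (SE) in sham versus intact and 1.12 in pMx versus intact. The last was called, and without intact replicate 3 it was 0.83 and not called. The standard error is pooled over all groups, so the wide intact spread enters it in pMx versus sham as well.

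The makeup of thrombospondin RNA shifted from Comp towards Thbs2 and Thbs4. The 5 genes summed to 649 ± 199 TPM in intact synovium, 996 ± 85.7 TPM in sham synovium and 2632 ± 49.7 TPM in pMx tissue (mean ± SD, n = 3 each). Comp took 50.6% to 74.2% of this sum in the intact libraries, 46.2% to 55.5% in the sham libraries and 29.7% to 34.9% in the pMx libraries. Thbs2 took 8.48% to 11.8% in the intact libraries and 29.4% to 33.3% in the pMx libraries. Thbs4 took 5.41%, 6.61% and 23.8% in the intact libraries and 25.6% to 31.1% in the pMx libraries, and intact replicate 3 was the high intact value.

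**Figure D3:**
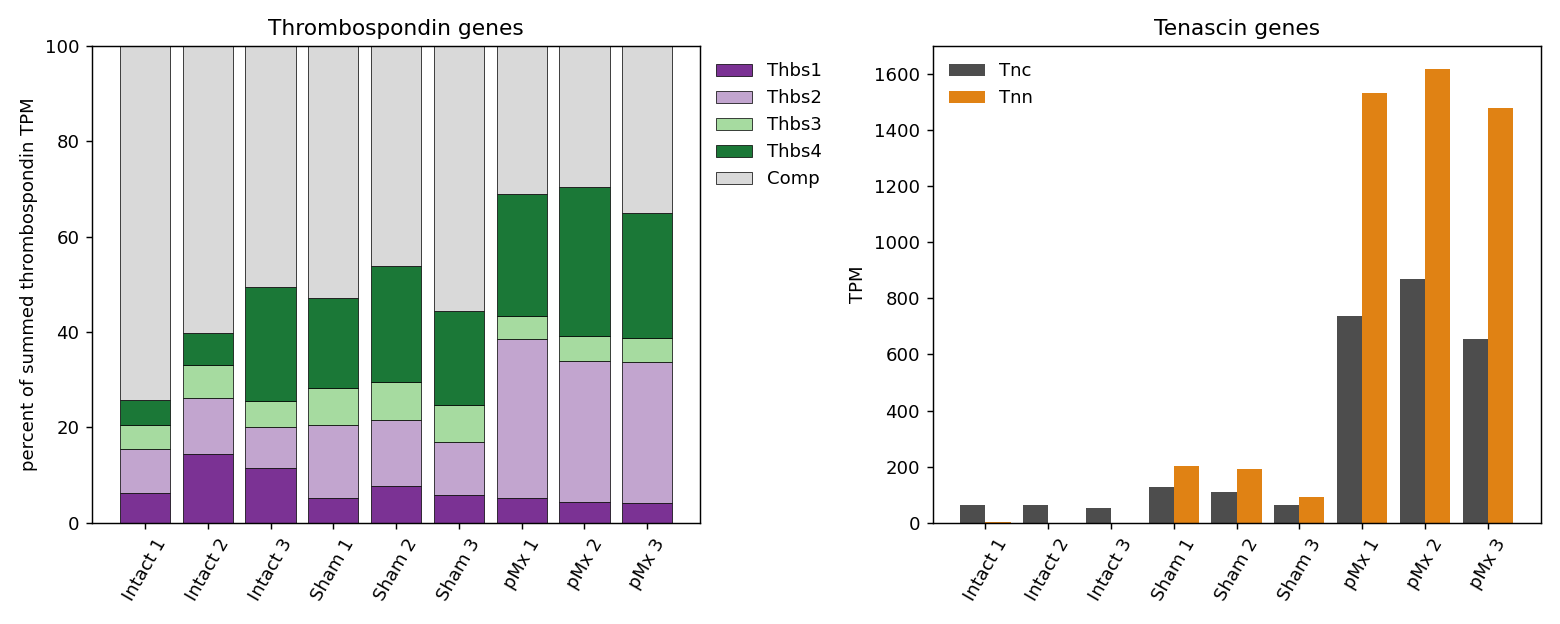
Share of each thrombospondin gene in their summed TPM (left, percent) and TPM of Tnc and Tnn (right) in each of the 9 libraries. Comp shrinks to 29.7% to 34.9% of the sum in the pMx libraries, and Tnn exceeds Tnc in every sham and pMx library but in no intact library.

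Fn1 and Sparc were the most abundant of the 10 genes in every group, and Fn1 had the smallest difference of the 10 in pMx versus sham. Sparc had a smaller one after quantile normalization (0.01 against 0.47 for Fn1) and without sham replicate 1 (0.553 against 0.559 for Fn1). Fn1 (gene identifier 25661) encodes fibronectin, which cells bind through integrins and which makes the first scaffold of a healing wound. Its level in replicates 1 to 3 was 4709, 5142 and 3502 TPM without surgery, 4580, 3540 and 3382 TPM after sham surgery and 5374, 6026 and 4096 TPM in pMx tissue. All 3 groups overlapped, with log2 fold changes of 0.42 ± 0.21 (SE) in pMx versus sham and -0.21 ± 0.21 (SE) in sham versus intact. These are values for the whole gene, and its splice forms were not separated.

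Sparc (gene identifier 24791) encodes a collagen-binding glycoprotein of bone and fibroblasts that takes part in collagen fibril assembly. Replicates 1 to 3 held Sparc at 7440, 6294 and 4785 TPM without surgery, 9036, 9530 and 9567 TPM after sham surgery and 14007, 14386 and 13632 TPM in pMx tissue. The groups did not overlap at either step, and the sham and pMx libraries were tight (coefficients of variation of 3.16% and 2.69%). The log2 fold changes were 0.63 in sham versus intact and 0.58 in pMx versus sham (SE 0.17 each), below the threshold of 1, and 1.21 in pMx versus intact. After quantile normalization Sparc differed by 0.01 in pMx versus sham, and by 0.78 in pMx versus intact, which was then not called. Sparc ranked 7th of all genes by mean TPM in intact synovium and 4th in the sham and pMx groups. The ratio of Sparc to Fn1 averaged 1.39 ± 0.179 for intact, 2.50 ± 0.460 for sham and 2.77 ± 0.492 for pMx libraries (mean ± SD, n = 3 each).

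Together the 10 genes took 1.17% ± 0.231 of all TPM in intact synovium, 1.56% ± 0.0524 in sham synovium and 2.78% ± 0.177 in pMx tissue (mean ± SD, n = 3 each). Without Sparc and Fn1 the sum was 1031 ± 291, 2399 ± 232 and 8594 ± 492 TPM in the same order. In the intact group the order of levels was Sparc, Fn1, Comp, Postn, Thbs4, Thbs1, Thbs2, Tnc, Thbs3 and Tnn, and the ranges of Thbs4, Thbs1, Thbs2 and Tnc overlapped with their neighbors, as did those of Sparc and Fn1 and of Comp and Postn. In the pMx group the order was Sparc, Fn1, Postn, Tnn, Comp, Thbs2, Tnc, Thbs4, Thbs3 and Thbs1. There the ranges of Comp, Thbs2, Tnc and Thbs4 overlapped with their neighbors, as did those of Thbs3 and Thbs1. Tnn was the lowest in intact synovium and the fourth in pMx tissue. In the sham group Tnn was the sixth, and from Thbs4 down to Thbs1 every neighboring pair overlapped.

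Some libraries lay low or high within their group for most of the genes. Sham replicate 3 had the lowest value of its group for 8 of the 10 genes and the highest for Sparc. Intact replicate 3 had the lowest value for 7 genes and the highest for Thbs4. Intact replicate 1 and pMx replicate 2 were each the highest of their group for 7 genes. The median deviation of the 10 genes from their group mean was -0.34 on the log2 scale in intact replicate 3, 0.26 in intact replicate 1, -0.19 in sham replicate 3 and 0.08 in pMx replicate 2. TPM values are shares of a library, and the skeletal muscle markers of intact replicate 3 are given above. Their part in these shifts was not tested.

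The genes whose pattern over the 9 libraries was most like that of each member were looked up among 8523 other genes with a mean of at least 10 TPM, by Pearson's r of log2(TPM + 1). All 9 points come from the same libraries and share the differences between the groups, so these values are descriptions. For Tnn these were P4ha3, Kcnn4 and Lrrc15 (r of 0.997, 0.996 and 0.994), and for Tnc Adgra3, Chsy1 and Runx1 (0.998, 0.997 and 0.997). Those of Postn were Fndc1, Lrrc17 and Col1a1 (0.997, 0.997 and 0.996), and those of Thbs3 were Col3a1, Mmp2 and Ppic (0.999, 0.997 and 0.996). Thbs2 was most like Kdelr2, Plpp5 and Sec61a1 (0.999, 0.999 and 0.998). Sparc was most like Pcolce, Marcksl1 and Gusb (0.995, 0.994 and 0.992), and Thbs4 like Fam89b, Nkain1 and Rcor2 (0.990, 0.986 and 0.980). Lower values were found for Thbs1, with Hdgfl2, Tpcn2 and Dkc1 (0.988, 0.983 and 0.981). Comp had M6pr, Nat9 and Cx3cr1 (0.971, 0.963 and 0.961), and Fn1 had Sfswap, Zc3h11a and Pgam5 (0.960, 0.958 and 0.953). Among the 10 genes themselves, Postn and Thbs3 were most alike (r of 0.993 over the 9 libraries), and Fn1 and Thbs4 least (0.183).

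Other matricellular genes were called in both directions. Of 20 such genes, 19 were tested. In pMx versus sham, 3 were called higher and 6 lower, where 3.36% and 4.85% of all genes were, and their median log2 fold change was 0.04 against -0.01 for all genes. In sham versus intact, 5 were called higher and 1 lower, where 1.42% and 0.533% of all genes were, with a median of -0.15 against -0.02. Ccn4, a Wnt target of the CCN family, rose at both steps, from 3.51 ± 0.252 to 14.5 ± 4.38 and 72.9 ± 2.92 TPM (mean ± SD, n = 3 each). Its log2 fold changes were 1.74 in sham versus intact and 2.30 in pMx versus sham (adjusted p = 0.00316 and 7.44e-05 from limma). Tgfbi, a fasciclin-domain relative of periostin, rose from 624 ± 19.2 TPM in sham synovium to 1992 ± 118 TPM in pMx tissue (a log2 difference of 1.67, limma adjusted p = 1.51e-04). Smoc2, of the SPARC family, rose by 1.26 in pMx versus sham (adjusted p = 0.00627 from limma). Ccn5, another CCN gene, was called higher in sham versus intact. The sham versus intact calls of Tgfbi (lost without intact replicate 3) and of Smoc2 (lost without intact replicate 2, sham replicate 1 or sham replicate 2) changed when 1 library was left out.

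CCN2, known as connective tissue growth factor, is a target of TGF-beta and YAP signaling. Its gene fell at both steps, from 1204, 1619 and 1242 TPM in the intact libraries to 699, 531 and 732 TPM in the sham libraries and 284, 246 and 241 TPM in the pMx libraries. All 3 groups were apart, and the log2 fold changes of Ccn2 were -1.05 and -1.34 (adjusted p = 0.00625 and 3.00e-04 from limma). The sham versus intact call was lost without intact replicate 2 or sham replicate 2 and after quantile normalization. Its relative Ccn3 fell by 2.34 in pMx versus sham (adjusted p = 4.35e-05 from limma), to 44.8 ± 8.22 TPM (SD, n = 3). The adjusted p of Spp1 (osteopontin) from limma was 0.149 in pMx versus sham, with values spread from 38.9 to 265 TPM in the sham libraries. For sham versus intact it was called higher (log2 fold change 3.04), and this call was lost in 6 of the 9 fits that left out a library. Those were the fits without intact replicates 2 or 3, sham replicates 1 or 2, or pMx replicates 1 or 2.

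Within the SPARC family, Sparc and Sparcl1 moved apart. Sparcl1, also known as hevin, is a close relative found in resting vessels and stroma. Replicates 1 to 3 held Sparcl1 at 1276, 1643 and 1150 TPM without surgery, 793, 668 and 823 TPM after sham surgery and 259, 277 and 324 TPM in pMx tissue. The groups did not overlap, with log2 fold changes of -0.82 in sham versus intact and -1.41 in pMx versus sham (adjusted p = 0.0127 and 1.96e-04 from limma), of which the latter was called. The ratio of Sparc to Sparcl1 averaged 4.61 ± 1.07 for intact, 12.4 ± 1.59 for sham and 49.4 ± 6.38 for pMx libraries (mean ± SD, n = 3 each). Spock2, another relative, fell by 2.21 in pMx versus sham (adjusted p = 2.63e-05 from limma). Fstl1 had log2 fold changes of 0.66 in sham versus intact and 0.61 in pMx versus sham, and Smoc1 of -0.15 and 0.43, with no call. Spock1 and Spock3 were above 0.15 TPM in no library. Fbln5, an elastic fiber protein, and Vtn (vitronectin) were also lower in pMx versus sham, by log2 fold changes of -1.65 and -1.09 (adjusted p = 7.92e-05 and 3.68e-04 from limma).

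**Figure D4:**
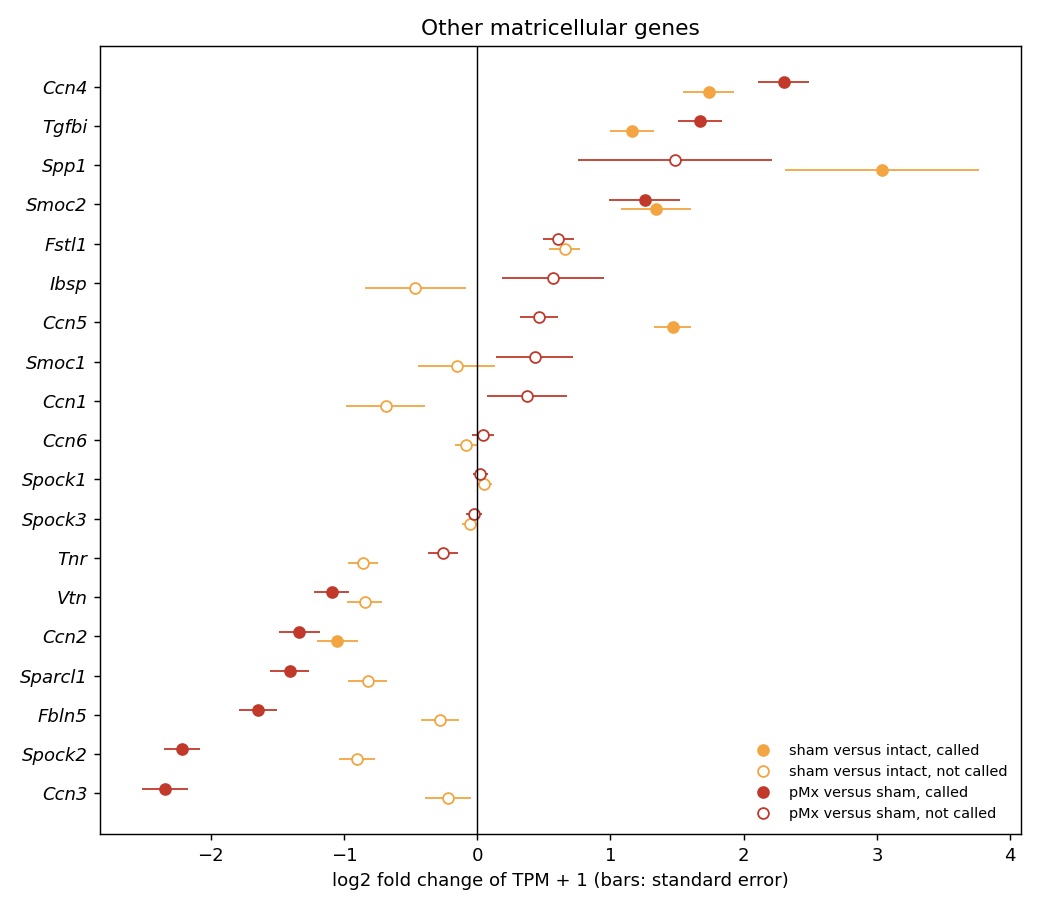
Log2 fold change of TPM + 1 of the 19 other matricellular genes in sham versus intact and pMx versus sham, with bars for the standard error and filled points for called genes. In pMx versus sham 3 genes are called higher and 6 lower, with Ccn4 and Ccn3 at the ends.

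Genes of receptors for these proteins or for collagen changed in both directions. Of 16 receptor genes, 3 were called higher and 2 lower in pMx versus sham, where 3.36% and 4.85% of all genes were, with a median log2 fold change of 0.31 against -0.01 for all genes. Itga11, the alpha chain of a fibroblast collagen receptor, rose from 23.6 ± 3.76 to 138 ± 8.39 TPM (mean ± SD, n = 3 each), a log2 difference of 2.51 with a limma adjusted p of 2.99e-05. Itga5, the alpha chain of the main fibronectin receptor, and Sdc1, a heparan sulfate proteoglycan, rose by 1.15 and 1.25 (adjusted p = 2.00e-04 and 7.90e-04 from limma). Cd36, a thrombospondin receptor that also takes up fatty acids in fat cells and vessels, fell by 3.01 on the log2 scale, from 47.7 ± 4.53 to 5.11 ± 1.20 TPM (mean ± SD, n = 3 each). The adipocyte markers fell in the same comparison (5 of 5 called lower), and their part in the change of Cd36 was not tested. Itga8, the alpha chain of a receptor that binds tenascin-C and fibronectin, fell by 1.59 (adjusted p = 2.22e-04 from limma). In sham versus intact, Itga11 was called higher and Itga8 lower, with log2 fold changes of 1.08 and -1.02. The former call was lost without intact replicate 3, and the latter without intact replicate 2 or sham replicate 2, after median-of-ratios rescaling and after quantile normalization.

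Among matrix partners and proteases, the calls at both steps were all higher. The list was chosen with earlier results of these data known, so nothing is read from its counts. Of 16 such genes, 9 were called higher and none lower in pMx versus sham, where 3.36% and 4.85% of all genes were, with a median log2 fold change of 1.40 against -0.01. For sham versus intact 8 were called higher and none lower, where 1.42% and 0.533% of all genes were, with a median of 1.04 against -0.02. Of these 8 calls, that of Lox was lost without intact replicate 3 or sham replicate 2, that of Adamts7 without sham replicate 2 and that of Mmp2 without intact replicate 3. Lox, the collagen cross-linking enzyme, rose by 2.00 in pMx versus sham (adjusted p = 7.25e-05 from limma), and Adamts4, a protease of aggrecan, by 2.18 (adjusted p = 1.95e-04 from limma). Col12a1, Acan and Col1a1 were the others among the 5 largest increases, at 3.63, 3.43 and 1.81. Dcn and Adamts5 were lower in pMx versus sham without a call, with log2 fold changes of -0.94 and -0.79 (adjusted p = 9.94e-04 and 0.00938 from limma). For sham versus intact the 5 largest increases were those of Acan, Col12a1, Col1a1, Matn4 and Vcan, at 3.44, 2.65, 1.59, 1.43 and 1.36.

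A further list held genes of the TGF-beta pathway and transcription factors linked to these proteins. Of 18 genes, 2 (Scx and Sox9) were called higher in pMx versus sham and none lower, where 3.36% and 4.85% of all genes were, and the median log2 fold change was 0.03 against -0.01. In sham versus intact, where 1.42% and 0.533% of all genes were called higher and lower, limma called 0 of the 18, of which 7 had an unadjusted p below 0.05. Smad3 and Srf passed the adjusted p and missed the fold change. The ligand genes Tgfb1, Tgfb2 and Tgfb3 had log2 fold changes of 0.54, 0.45 and 0.02 in pMx versus sham. Tgfb1 and Tgfb2 passed the adjusted p (0.00413 and 0.00145 from limma) and missed the fold change, and Tgfb3 passed neither. The ligand genes and Prrx1 are named here after their values were seen. Prrx1, a mesenchymal factor known to act on Tnc, was at 145 ± 11.9 TPM in sham synovium and 149 ± 8.79 TPM in pMx tissue (mean ± SD, n = 3 each), which differed by 0.04 on the log2 scale (limma adjusted p = 0.761).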

How the data were processed

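RNA from rat knee tissue was sequenced in 9 libraries, 3 each of the intact, sham and pMx groups, as assigned from the labels. The authors deposited TPM per gene, and per the submitters' processing notes HISAT2 2.0.4 and the build mRatBN7.2 were used. The counting tool and annotation are not given in the sources used here. Read numbers cannot be recovered from TPM, so the depth and its precision are unknown. The assignment of reads to related genes was not checked.

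TPM were tested as log2(TPM + 1) with limma 3.58.1 in R 4.3.3 (eBayes with a trend, all 9 libraries in 1 fit, 16512 genes above 0 TPM in at least 3 libraries, Benjamini-Hochberg adjustment). Calls used the thresholds of the study, which are an adjusted p under 0.05 together with a log2 difference of more than 1 either way. The fit was tested on simulated data. A fold change on the log2(TPM + 1) scale understates the change of low genes.

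The members and lists were chosen with earlier results of these data known, so nothing is read from the counts of calls in either. Besides the members, up to 5 called genes per pathway list and direction were named by size of change, with the tenascin and SPARC family genes at any value. From marker lists the most abundant genes and those at 0 were named, and for each member the 3 genes of highest Pearson's r. Some further genes of the lists were named after their values were seen. Promoter sequences were RefSeq's (GRCr8), matched by symbol, and the motif search used Python 3.11.15. Alternatives were the pseudocount (0.1 and 0.01), the filter on low values, the scaling, the trend, the 6 libraries of a comparison alone, a replicate block, the adjusted p alone, and leaving out each library. The p-values set a group difference against the spread between libraries within the groups, which may be technical in part.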

Additional observations from a re-analysis of the deposited data

How the results depend on the processing

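Of the alternatives run for the fold changes of the 10 genes, 522 kept direction and call, 12 lost a call, 3 gained a call and 3 changed sign. The sign changes were all of Thbs1 in sham versus intact (-0.05), which was 0.13 without intact replicate 2, 0.02 without sham replicate 1 and 0.06 without sham replicate 3, and ranged from -0.22 to 0.13 over all fits that left out a library. With the adjusted p alone, 8 of the 10 genes were called for pMx versus sham where 5 were before, and of the genes of the other lists 43 in place of 25 for pMx versus sham and 29 in place of 16 for sham versus intact. Over all genes, this setting called 6046 in place of 1355 in pMx versus sham, 2097 in place of 323 in sham versus intact and 8350 in place of 2360 in pMx versus intact. A pseudocount of 0.01 called 2303, 603 and 3662 genes, and a pseudocount of 0.1 called 2229 for pMx versus sham and 612 for sham versus intact. In sham versus intact, the fit over the 6 libraries of the comparison called 3 of the 10 genes in place of 5, losing Thbs2 and Thbs4. Leaving out 1 library at a time gave 5 to 6 called genes of the 10 in pMx versus sham, 3 to 5 in sham versus intact and 7 to 9 in pMx versus intact. For the other lists it gave 25 to 27, 10 to 19 and 35 to 38 genes, the 10 without sham replicate 2, which also left 193 called genes of all in sham versus intact. The gains in pMx versus intact and pMx versus sham were of Thbs1.

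Libraries of the same number did not deviate together in every pair, and not every library matched its own number best. The correlations were 0.03 to 0.48 for pMx with sham, and -0.49 to 0.00 for sham with intact. Whether libraries of the same number share an animal or a batch was not stated in the sources used here. Correlations over 3 libraries per group cannot tell. With the replicate block, 5, 5 and 8 of the 10 genes were called in pMx versus sham, sham versus intact and pMx versus intact, as without it. The scalings tried moved the median of all genes by less than 0.1 on the log2 scale. Quantile normalization took Sparc in pMx versus sham from 0.58 to 0.01. TPM set no depth, so no limit of detection can be given for Tnn in intact tissue.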
